A study of Mus musculus with 19 samples.

Results

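Of the 6 genes followed here, those of the DNA damage checkpoint that guards oocytes, 5 could be measured in developing mouse ovaries, and 4 of these 5 changed with stage, as did 68.1% of all genes tested. Trp63, which encodes p63, was below or near the median of all array values up to gestation day 16 and was far higher 2 days after birth, with a mean of 5467 signal units at postnatal day 2, against 53.8 at gestation day 11. Atm and Atr, the kinases that sense DNA damage, both had their highest mean signal at gestation day 14. Chek2, the kinase that acts on p63 in oocytes, was lowest at gestation day 18 and higher again after birth. For Chek1, which encodes the companion kinase, the test over all 6 stages was not passed.

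The genes were Trp63, Trp53, Chek1, Chek2, Atm and Atr, chosen by symbol. Every probe set that the array's annotation gives to one of these genes alone was taken, which gave 15 probe sets for 5 genes, out of 18193 genes on the array with a probe set of their own. Trp63 had 4 probe sets, Chek1 had 5, Chek2 had 1, Atm had 2 and Atr had 3. No probe set was annotated to Trp53 alone in the table used, so Trp53 is not analysed here. For genes with more than 1, the brightest on average over the ovary arrays stood for the gene, and the others are given beside it. Of the 15 probe sets, 10 passed a filter on low signal.

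Whole ovaries of wild-type CD-1 mice, an outbred stock, were profiled on Affymetrix Mouse430_2 arrays at gestation days 11, 12, 14, 16 and 18 (gd11 to gd18) and at postnatal day 2 (pnd2), with 3 arrays per stage. One further array held RNA of whole newborn animals of both sexes at postnatal day 0.5, a pool of 8 animals, and had no replicate. The sample labels call the gd11, gd12 and gd14 samples pools of 3 and the later ones unpooled, while the series text gives each sample as the ovary pair of 1 animal, so what a replicate is at the early stages is not settled. Per that text, all samples came from different dams except gd11 samples 18 and 19. Samples 16 and 18 of gd11 are labelled as gonad with mesonephros attached, and sample 19 as gonad.

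ATM and ATR are large kinases that are switched on by DNA breaks and by stretches of single-stranded DNA, and they phosphorylate the checkpoint kinases CHK2 and CHK1. In the mouse ovary the breaks that start meiotic recombination, and any that are left unrepaired, are read by this pathway, and CHK2 phosphorylates the TAp63 form of p63 in oocytes arrested in meiotic prophase. Activated p63 and p53 switch on genes for oocyte death, such as Bbc3 (PUMA) and Pmaip1 (NOXA), which is how damaged oocytes are removed from the reserve.

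The 18 ovary arrays had been scaled by the authors to a common trimmed mean, and their values were used as deposited. Their median signal lay between 102.68 and 137.39, and each array's mean correlation with the others of its stage lay between 0.953 and 0.978. The highest median was that of gd16 sample 7, and the 3 gd16 arrays had the lowest correlations, 0.953 to 0.957. The ratio of 3′ to 5′ signal for Gapdh, a measure of how far labelled RNA falls short of full length, was 2.99 to 3.28 at gd11 and 5.07 to 5.41 at pnd2. Every array after gd11 was above the gd11 range, and gd16 sample 7 had the highest value, 5.59. The part of this ratio in the results below was not tested. As whole ovaries were measured, fewer cells of a type and less RNA per cell cannot be told apart. At gd11, signals of 4 neuron markers summed to between 776 and 15685 per array, against 847 to 1591 at pnd2. The highest sum was that of gd11 sample 16, where Stmn2 gave 7965, against 227 and 291 in samples 18 and 19. Most of the pnd2 sum was Th, with a mean of 1071, while Stmn2, Tubb3 and Elavl4 averaged 38.2, 31.8 and 64.0 there. For 4 erythroid markers the sums were 49067 to 56982 at gd11 and 105 to 179 at pnd2. The part of these cells in changes against gd11 was not tested.

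The start regions of the 3 kinase genes whose representative probe set passed the test over stages are shown first, since the results turn on when these genes were high. Each is the run of 250 bases just before the start of the gene, from RefSeq (build GRCm38.p6), on the gene's own strand. Capitals mark matches, on either strand, to a GC box (GGGCGG), to the CCAAT box, which is named by its letters, or to an E2F site (TTTNNCGC). Letters of a STRA8 motif (CNCCTCAG) and of a CRE (TGACGTCA) were searched as well. Atm lies on the minus strand (chr9:53536672-53536921), Atr on the plus strand (chr9:95857347-95857596) and Chek2 on the plus strand (chr5:110839733-110839982).
Atm: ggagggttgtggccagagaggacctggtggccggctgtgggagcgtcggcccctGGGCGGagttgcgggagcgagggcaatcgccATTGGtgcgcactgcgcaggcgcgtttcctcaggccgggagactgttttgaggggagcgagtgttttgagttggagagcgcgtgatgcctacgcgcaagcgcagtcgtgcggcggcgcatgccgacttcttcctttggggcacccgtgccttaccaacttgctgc
Atr: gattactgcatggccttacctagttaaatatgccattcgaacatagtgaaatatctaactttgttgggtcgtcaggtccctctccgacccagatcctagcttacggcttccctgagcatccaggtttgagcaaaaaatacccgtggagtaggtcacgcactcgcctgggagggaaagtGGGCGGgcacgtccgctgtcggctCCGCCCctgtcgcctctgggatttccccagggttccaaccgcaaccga
Chek2: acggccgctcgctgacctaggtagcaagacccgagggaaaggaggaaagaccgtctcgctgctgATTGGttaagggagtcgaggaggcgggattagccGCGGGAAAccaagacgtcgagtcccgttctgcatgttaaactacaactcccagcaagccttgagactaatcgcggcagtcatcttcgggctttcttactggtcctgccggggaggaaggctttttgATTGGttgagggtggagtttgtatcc
Atm held 1 GC box, which began 196 bases before the start, and 1 CCAAT box at 165 bases. Atr held 2 GC boxes, at 72 and 48 bases. Chek2 held 2 CCAAT boxes, at 186 and 26 bases, and 1 E2F match at 152 bases. Among 32851 mouse promoters cut to the same length, 32.7% held the GC box, 33.8% the CCAAT box and 4.28% the E2F letters. The STRA8 letters, found in 6.42% of promoters, and the CRE, found in 1.55%, were in none of these 3 windows, which says only that the letters are absent there. Atm and Atr both held the GC box, a common element, and its part in their levels was not tested. The window of Chek1 held none of the 5 motifs. The table of promoters matched 5 of the 6 genes, and it did not hold Trp63.

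Changes over stages were tested with limma on log2(signal + 31), with p-values adjusted over 26465 probe sets by the Benjamini-Hochberg method and a call at an adjusted p under 0.05. In limma's F test over the 6 stages, 4 of the 5 genes were called, which compares with 68.1% of all 12600 genes tested. A call as such therefore does not set these genes apart in an organ that changes this much. The adjusted p was 5.24e-12 for Trp63, 7.18e-09 for Atr, 5.7e-06 for Chek2, 4.68e-05 for Atm and 0.118 for Chek1. Of the probe sets that passed the filter, 0.0529% had a smaller p than Trp63. The Trp63 probe set passed through its gd18 and pnd2 means alone, so its call and this rank are not independent of the filter and serve only as description.

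**Figure D1:**
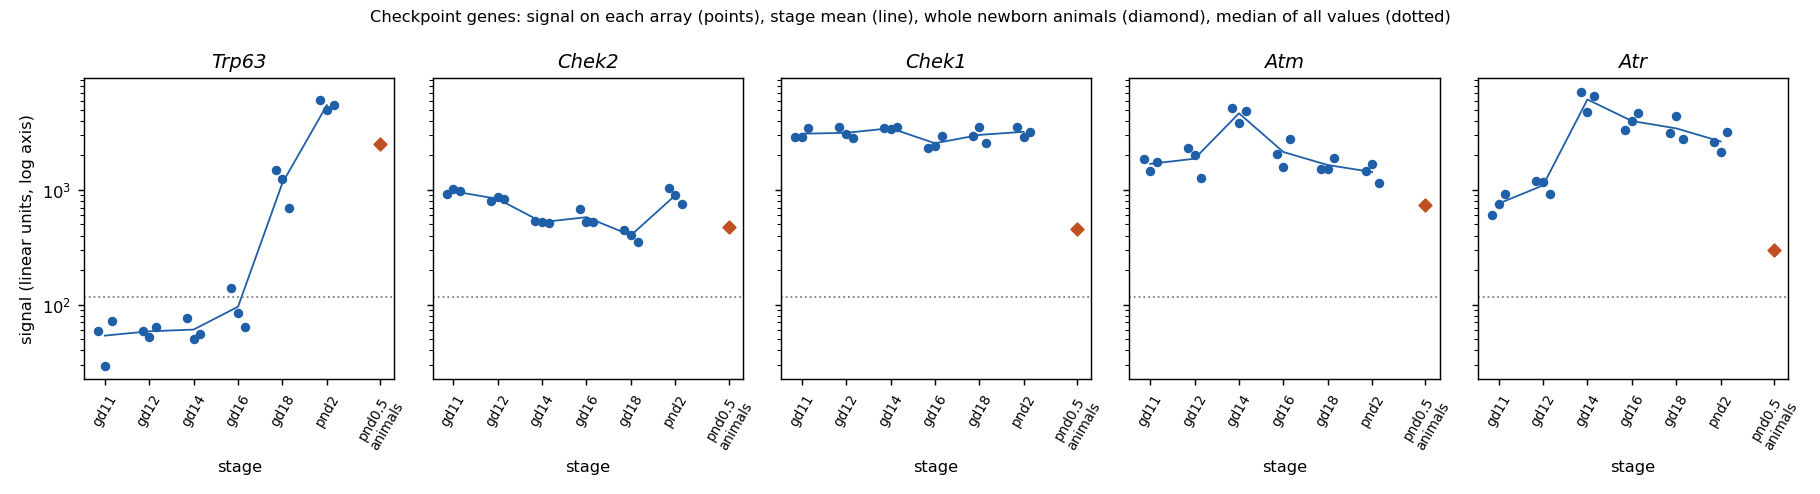
Signal of the representative probe set of each gene (linear units, log axis) on each of the 18 ovary arrays, with stages from gd11 to pnd2 on the horizontal axis. Points are arrays, the line joins stage means, the diamond is the array of whole newborn animals, and the dotted line is 115.78, the median of all ovary values. Trp63 stayed near or under that line up to gd16 and reached 4946 to 6008 at pnd2, Atm and Atr were highest at gd14, and Chek1 stayed between 2317 and 3555.

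Both sensor kinases rose at gd14. Atr, which with its partner ATRIP is recruited to single-stranded DNA and, in meiosis, to unsynapsed chromosomes, had signals of 603, 754 and 922 at gd11 and of 1186, 1169.7 and 926 at gd12. It had 7103, 4778 and 6511 at gd14. All gd14 arrays lay far above all gd11 and gd12 arrays. Signals were 3319, 3949 and 4674 at gd16, 3124, 4380.4 and 2793 at gd18, and 2604, 2126 and 3189.9 at pnd2. The lowest gd14 array stood only just above the highest gd16 array. The arrays of gd18 overlapped those of gd16 and of pnd2, while all pnd2 arrays lay below all gd16 arrays. The mean at gd14 was 5.61 times that at gd12 (log2 change 2.44 ± 0.21 SE, limma adjusted p = 1.52e-07), a rise that ranked 92 among 12600 genes. Atr then fell at gd16, where its mean was 0.649 times the gd14 mean (log2 change -0.61 ± 0.21, limma adjusted p = 0.0443). This call was lost when any 1 of several arrays was left out: the adjusted p was 0.159 and 0.09 without gd16 samples 7 and 8, 0.155 and 0.134 without gd14 samples 10 and 12, and 0.0506 to 0.0537 without gd12 sample 13, gd11 sample 18, gd18 sample 4 or pnd2 sample 1. The steps to gd18 (log2 change -0.22, limma adjusted p = 0.557) and to pnd2 (-0.37 ± 0.21, limma adjusted p = 0.265) were not called. Over both steps together, pnd2 was called lower than gd16 (log2 change -0.59 ± 0.21, limma adjusted p = 0.035). At pnd2 Atr was still 3.47 times as high as at gd11 (log2 change 1.76 ± 0.21, limma adjusted p = 1.84e-06).

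Atm, the kinase that responds to double-strand breaks, had signals of 1859.7, 1457 and 1738 at gd11 and of 2336, 2001 and 1268 at gd12, which overlapped. At gd14 it had 5204, 3825 and 4908, more than on any array of another stage. Signals at gd16 were 2053, 1569 and 2785, back in the range of the early stages or just above it. At gd18 they were 1527, 1516 and 1896, and at pnd2 they were 1473, 1674 and 1142. The gd14 mean was 2.49 times the gd12 mean (log2 change 1.33 ± 0.22, limma adjusted p = 0.000401). The gd16 mean was in turn 0.46 times the gd14 mean (log2 change -1.14 ± 0.22, limma adjusted p = 0.00179). No other step between neighbouring stages was called for Atm, and pnd2 did not differ from gd11 beyond the spread (log2 change -0.24 ± 0.22, limma adjusted p = 0.407). The maximum of Atm was thus limited to 1 sampled stage, while Atr stayed above its gd11 level to pnd2. Whether the genes differ in this was not tested.

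The second probe set of Atm, 1421205_at, had the same course as the first, 1428830_at. Its signals were 721, 584 and 585 at gd12, 1269, 1407 and 1741 at gd14, and 503, 531 and 779 at gd16. Its log2 change was 1.18 ± 0.18 for gd14 minus gd12 (limma adjusted p = 0.000196) and -1.26 ± 0.18 for gd16 minus gd14 (limma adjusted p = 0.000171). Over the 18 arrays the log2 levels of both probe sets had a Pearson r of 0.868, a description of arrays that share stages and scaling. The probe sets of Atr diverged more. All 3 rose at gd14, with log2 changes of 2.44 for 1427197_at, 0.68 for 1445091_at (limma adjusted p = 0.00526) and 0.74 for 1438921_at (limma adjusted p = 0.025). The last had signals of 500.2, 555 and 747 at gd14 and of 118, 174 and 232 at gd16. It was thus at or near its gd11 level of 189 to 263 by gd16 (gd16 minus gd14, log2 change -1.64 ± 0.22, limma adjusted p = 7.84e-05), while 1427197_at was still high. The rise at gd14 was therefore seen with all Atr probe sets, but its size and its persistence depended on the probe set. Neither of the other Atr probe sets called the difference between pnd2 and gd11 (log2 changes of 0.39 and 0.48, limma adjusted p = 0.054 and 0.0858). At pnd2 against gd16, 1445091_at was not called (-0.22, limma adjusted p = 0.29), and 1438921_at was called higher (0.79, limma adjusted p = 0.00988). Which transcripts each one reads was not tested.

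**Figure D2:**
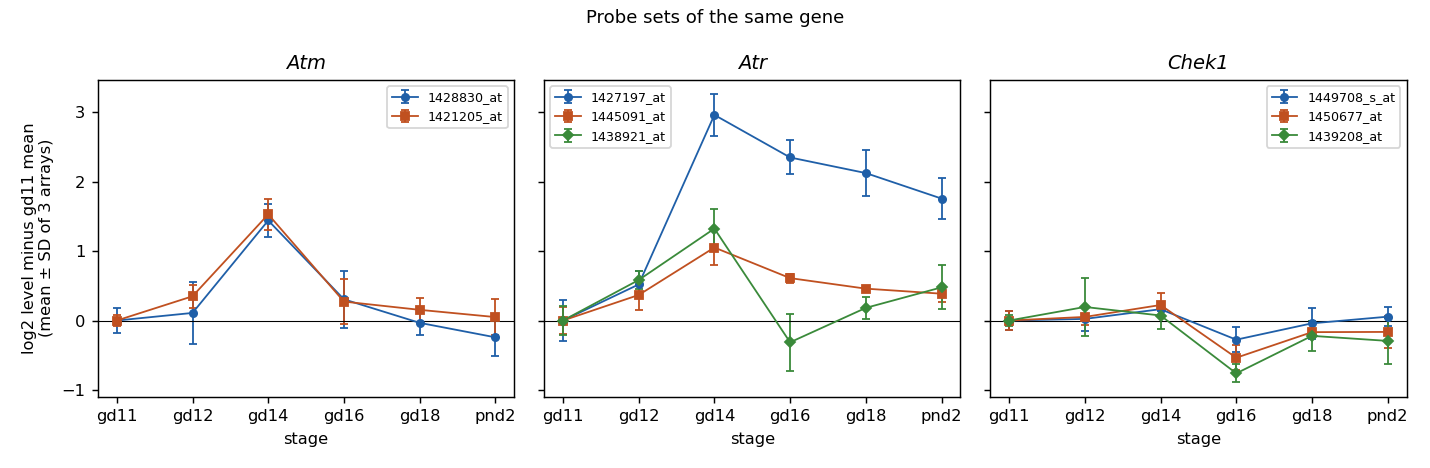
Log2 level relative to the gd11 mean (vertical axis) of each probe set that passed the filter, for Atm, Atr and Chek1, by stage, as mean ± SD of 3 arrays. The probe sets of Atm run together with a single maximum at gd14, those of Atr separate from gd14 on, and those of Chek1 share a minimum at gd16.

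Markers of germ cells in meiosis moved with these genes around gd14. All 6 markers of meiotic prophase (Sycp1, Sycp3, Syce1, Dmc1, Stra8 and Rec8) were called higher at gd14 than at gd12, and 5 of 6 were called lower at gd16 than at gd14, all but Sycp1. At gd11 the 6 signals summed to between 189 and 313 per array, and at gd12 to between 415 and 1408. The sums lay between 20229 and 26842 at gd14, between 8640.1 and 12293 at gd16, between 14804 and 21583 at gd18, and between 10817 and 18132 at pnd2. The sum over 6 general germ cell markers, among them Ddx4 and Dazl, lay between 3011 and 10843 at gd12, between 24254 and 30361 at gd14, and between 11072 and 13257 at gd16. At gd18 that sum lay between 14359 and 24919, and at pnd2 between 14039 and 19029. Not every gene of the germ cell list was highest at gd14: Mael had its highest mean at gd18 (6919), Dppa3 at pnd2 (4557) and Pou5f1 at gd12 (362). The maximum of Atm and Atr at gd14 thus fell on the stage with the highest mean sums for both lists, though in both the gd14 and gd18 ranges overlapped. Their part in the changes of Atm and Atr was not tested.

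Of the checkpoint kinases, Chek2 had a course that dipped before birth. CHK2 is the kinase that links ATM to p53 and p63. Signals were 926, 1014 and 978 at gd11 and 798, 868 and 835 at gd12. They were 536, 523 and 510.3 at gd14, below every earlier array. At gd16 they were 688, 522 and 525 and at gd18 they were 448, 402 and 355. After birth Chek2 had 1038, 904 and 749.7 at pnd2, above every array from gd14 to gd18. The gd14 mean was 0.628 times the gd12 mean (log2 change -0.64 ± 0.15, limma adjusted p = 0.00593). The pnd2 mean was 2.23 times the gd18 mean (log2 change 1.09 ± 0.15, limma adjusted p = 8.79e-05). Levels at pnd2 and gd11 did not differ beyond the spread (log2 change -0.12 ± 0.15, limma adjusted p = 0.535). The step to gd18 was just short of a call (gd18 minus gd16, log2 change -0.49 ± 0.15, limma adjusted p = 0.0514). The step to gd12 was not called (-0.22 ± 0.15, limma adjusted p = 0.478), although its arrays did not overlap. Chek2 was thus low at gd14, the stage of highest Atm and Atr, and rose between gd18 and pnd2, as did Trp63.

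Markers of dividing cells moved with Chek2 in part. Of 5 measured, 3 were called lower and 1 higher at gd14 than at gd12, and 2 were called higher at pnd2 than at gd18. These 2 were Aurkb and Ccna2, regulators of mitosis, with log2 changes of 0.90 (limma adjusted p = 0.0031) and 0.64 (limma adjusted p = 0.0263) at pnd2 and of -0.97 and -0.69 at gd14. Mki67, also called lower at gd14 (-0.42), was not called at pnd2 (0.39, limma adjusted p = 0.0666). Bub1 was the 1 called higher at gd14 (1.13, limma adjusted p = 0.000146), and it was not called at pnd2 (-0.018). Top2a was called at neither step (0.043 at gd14 and 0.17 at pnd2). The list summed to between 21558 and 23628 at gd11, between 17057 and 22234 at gd12, and between 20452 and 20774 at gd14. Within these sums Bub1 averaged 3180 at gd12 and 7044 at gd14. From gd16 on it was lower, between 11145 and 13267 at gd16, between 9843 and 11125 at gd18, and between 11749 and 13379 at pnd2. The part of dividing cells in the course of Chek2 was not tested.

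Chek1, which ATR phosphorylates and which restrains the cell cycle during replication, had 2916, 2894 and 3440.2 at gd11, 3555, 3038 and 2823 at gd12, and 3451, 3366 and 3522 at gd14. Arrays of these stages overlapped. Signals were 2317, 2398 and 2924 at gd16, all below those of gd14, then 2961, 3506 and 2570.1 at gd18 and 3525, 2904 and 3186 at pnd2. The one called step was gd16 minus gd14, with a log2 change of -0.44 ± 0.14 (limma adjusted p = 0.0313) and a mean 0.739 times as high. Without gd16 sample 7 or 8 or any of the gd14 samples 10, 11 and 12 it was no longer called (limma adjusted p = 0.0648 to 0.106). A pair of weaker probe sets had the same dip and passed the test more clearly. For 1450677_at the signals were 691, 848 and 882 at gd16, against 1535, 1203 and 1426 at gd14 (log2 change -0.76, limma adjusted p = 0.00171). For 1439208_at they were 556, 603 and 671 at gd16, against 950.3, 1176 and 1217 at gd14 (log2 change -0.83, limma adjusted p = 0.00703). Unlike the representative, these probe sets passed the F test over all stages (limma adjusted p = 0.0041 and 0.00469). The remaining Chek1 probe sets, 1420032_at and 1420031_at, gave 1.8 to 82.5 on all ovary arrays and did not pass the filter.

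**Figure D3:**
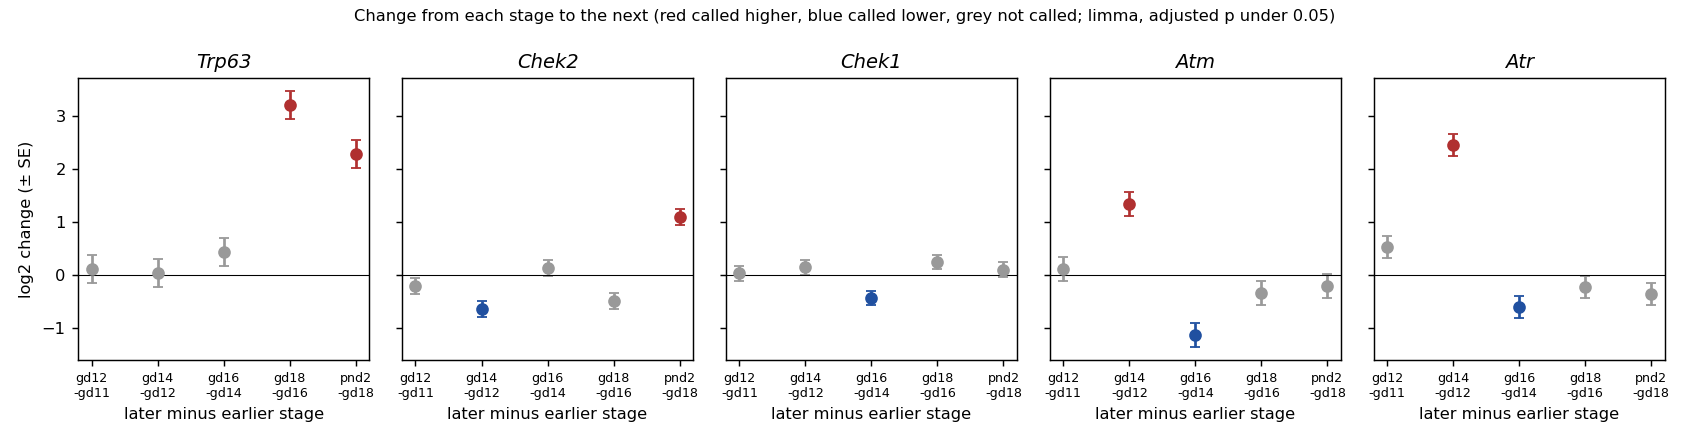
Log2 change of the representative probe set of each gene from one stage to the next (later minus earlier stage, ± SE of the limma fit). Red points were called higher, blue points lower and grey points were not called. Trp63 rose in the last 2 intervals, Atm and Atr rose in the interval to gd14 and fell in the interval to gd16, and Chek2 fell to gd14 and rose to pnd2.

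Trp63 is a p53 family member whose TA form is made by oocytes and whose other main form is made by basal cells of skin and other epithelia. Its probe set 1418158_at had 59.6, 29.4 and 72.5 at gd11, 59.5, 52.6 and 63.8 at gd12, and 76.1, 50.2 and 55.8 at gd14. At gd16 it had 139.6, 85 and 63.5. Up to gd14 every array was below 115.78, the median of all ovary values, and at gd16 sample 7 alone was above it. Signals were 1504, 1247 and 702 at gd18 and 6008, 4946 and 5447 at pnd2. The groups of the last 3 stages did not overlap. The gd18 mean was 12 times the gd16 mean (log2 change 3.20 ± 0.26, limma adjusted p = 6.82e-06), rank 4 of 12600 genes in that interval. The gd16 mean of 96.0 is itself below 115.78, and the probe set passed the filter through gd18 and pnd2 alone, so this ratio and rank rest on a low value. The pnd2 mean was 4.75 times the gd18 mean (log2 change 2.28 ± 0.26, limma adjusted p = 1.56e-05), rank 89. Between pnd2 and gd11 the log2 change was 6.05 ± 0.26 (limma adjusted p = 1.04e-11), rank 16. As the gd11 signal is below the median of all values, the ratio of 102 between the pnd2 and gd11 means rests on low values and is a rough figure. The step to gd16 was not called (log2 change 0.44 ± 0.26, limma adjusted p = 0.263).

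The other 3 probe sets of Trp63 stayed low and did not pass the filter, so the rise rests on 1 probe set. On ovary arrays, 1459581_at gave 2.8 to 165, with 62.4, 61.5 and 165 at pnd2. The ranges were 3.87 to 72.5 for 1452027_a_at and 2.91 to 50.0 for 1451876_a_at. On the array of whole newborn animals, where 1418158_at gave 2522, 1459581_at gave 267 and the other pair gave 26.6 and 12.4. Which form of p63 each probe set reads is not in the annotation used here.

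Oocyte markers moved with Trp63. Of the 9 genes listed, 7 were called higher at gd18 than at gd16, and 4 were called higher at pnd2 than at gd18. Zp2, which encodes a protein of the egg coat, had log2 changes of 2.77 at gd18 and 4.54 at pnd2, and Nobox, a transcription factor of oocytes, had 2.02 and 0.80, the second of which was not called. The list summed to between 963 and 1283 at gd11, between 1112 and 1384 at gd12, and between 1329 and 1511 at gd14. It climbed in each later stage, with sums between 2263 and 4749.7 at gd16, between 9218 and 16687 at gd18, and between 35733 and 48079.8 at pnd2. The part of oocyte number or content in the Trp63 change was not tested. Of 10 markers of basal epithelium 8 had a probe set, and they summed to means of 2181 at gd11, 4030.4 at gd12, 5502 at gd14, 8320 at gd16, 8868 at gd18 and 9324 at pnd2, against 22414 in whole animals. Most of that sum was Itga6, an integrin that ovaries also hold, with means of 1974 at gd11, 7963 at gd16, 8620.1 at gd18 and 9044 at pnd2, against 1840.1 in whole animals. Itga6 was not called higher at gd18 than at gd16 (log2 change 0.11, limma adjusted p = 0.804) or at pnd2 than at gd18 (0.061, limma adjusted p = 0.892). Left out because of these values, it leaves 7 genes that summed to 144 to 487 on ovary arrays, against 20574 in whole animals. Of these 7 only Krt5 passed the filter on low signal, so their sum in ovaries rests on low values. Krt5, a keratin that defines basal cells, gave 58.3 to 183 in ovaries and 12312 in whole animals, Krt15 gave 2.7 to 23.6 and 5103, and Krt17 gave 2.16 to 72.2 and 2222. Not all 7 set ovaries apart from whole animals: Krt14 gave 20.9 to 119 in ovaries and 24.3 in whole animals, and Dsc3 gave 2.82 to 82.5 and 107. At gd18 and pnd2, where Trp63 was high, the sum over these 7 genes was 187 to 290 and 224 to 349, and at gd16 it was 227 to 487. The genes differed within this sum. Col17a1 and Dsc3 had their highest means at pnd2 (77.0 and 40.7, against 20.7 and 19.5 at gd18), and the others had theirs at gd14 or gd16. The part of basal epithelium in the Trp63 change was not tested.

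**Figure D4:**
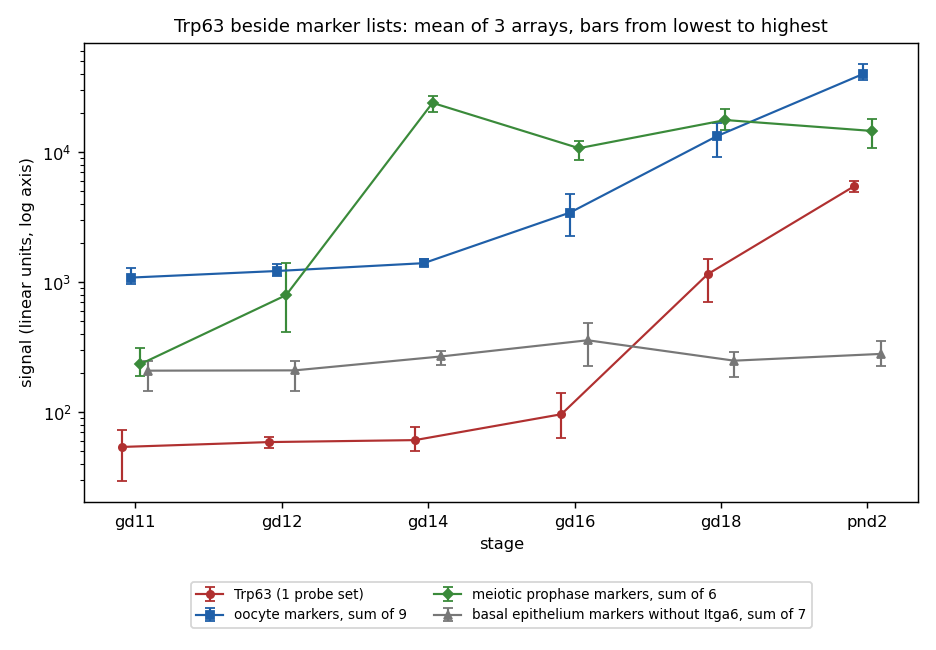
Signal of Trp63 and summed signals of 3 marker lists by stage (linear units, log axis), as mean of 3 arrays with bars from the lowest to the highest array. Trp63 and the sum of 9 oocyte markers both climb after gd16, the sum of 6 meiotic markers peaks at gd14, and the sum of 7 basal epithelium markers stays between 144 and 487. Of these 7 only Krt5 passed the filter on low signal.

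Counted by comparison, 0 of the 5 genes were called at gd12 against gd11 in limma, where 4.69% of all genes were, and 1 gene, Atr, had an unadjusted p under 0.05 (0.0208). At gd14 against gd12, 2 were called higher (Atm and Atr) and 1 lower (Chek2), where 11.5% of genes were called higher and 8% lower. At gd16 against gd14, 3 were called lower (Atm, Atr and Chek1), where 9.75% of genes were. At gd18 against gd16, Trp63 was the 1 gene called, higher, where 4.94% of genes were. At pnd2 against gd18, 2 were called higher (Trp63 and Chek2), where 8.49% of genes were, and at pnd2 against gd11, 2 were called higher (Trp63 and Atr), where 26.3% were.

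Ordered by mean, Trp63 ran pnd2, gd18, gd16, gd14, gd12 and gd11, and only the first 2 steps of that order were called. Atr ran gd14, gd16, gd18, pnd2, gd12 and gd11, with called steps from gd14 to gd16 and between pnd2 and gd12 (pnd2 minus gd12, log2 change 1.24, limma adjusted p = 0.000118). Atm ran gd14, gd16, gd12, gd11, gd18 and pnd2, and no neighbours beyond the first pair differed. Chek2 ran gd11, pnd2, gd12, gd16, gd14 and gd18, with 1 called step, between gd16 and gd12 (gd16 minus gd12, log2 change -0.51 ± 0.15, limma adjusted p = 0.0137). Chek1 ran gd14, pnd2, gd12, gd11, gd18 and gd16, and no neighbours differed.

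Set beside the array of whole newborn animals, which allows no test, the genes divided by how far ovaries stood above the animal. Every ovary array exceeded the whole-animal signal for Atr (603 to 7103 in ovaries, 302 in whole animals), for Atm (1142 to 5204 in ovaries, 738 in whole animals) and for Chek1 (2317 to 3555 in ovaries, 460.1 in whole animals). For Chek2 the whole-animal signal of 473 lay within the ovary range of 355 to 1038. For Trp63 it was 2522, between the gd18 and pnd2 ovaries. Whole newborn mice include skin, where p63 is abundant.

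Genes with the most similar course over the 18 ovary arrays were found by Pearson correlation of log2 levels among 12126 named genes, as a description of arrays that share stages. For Trp63 they were Olah (r = 0.991), Nlrp4f (0.990), Syt16 (0.982) and Nlrp5 (0.979), of which Nlrp5 encodes an oocyte protein needed by the early embryo. Nlrp5 averaged 139.9 at gd16, 1540 at gd18 and 19366 at pnd2. For Atr they were Gpat2 (0.987), Tex12 (0.979), Taf4b (0.975) and Meiob (0.975), of which Tex12 is part of the synaptonemal complex and Meiob binds single-stranded DNA in meiotic recombination. For Chek2 they were Nusap1 (0.940), a protein of the mitotic spindle, Rimkla (0.918), Dennd11 (0.908) and Hey1 (0.902). For Atm they were Ndufs1 (0.921), Esf1 (0.921), Emc2 (0.919) and Abhd18 (0.912). For Chek1 the likeness was weaker, with Lrrc40 (0.812), Cox17 (0.788), Dbf4 (0.788) and Zfp788 (0.781).

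Partners of these genes were followed with 5 lists. Of the ATM branch, 15 of 16 genes were tested and 13 changed over the 6 stages in limma's F test, and of the ATR branch 16 of 17 were tested and 14 changed. The same was seen for 6 of 9 targets of CHK1 and CHK2, for 11 of 13 tested regulators of the p53 family and for 12 of 19 tested p53 family targets. These are 86.7%, 87.5%, 66.7%, 84.6% and 63.2%, beside 68.1% of all genes.

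In the ATM branch, 8 of 15 genes rose and 1 fell at gd14 against gd12, where 11.5% of all genes rose and 8% fell, with a median log2 change of 0.57, beside -0.02 for all genes. Without gd12 sample 15, 5 rose, and the 1 fall was not called without gd12 sample 13 or 15 or gd14 sample 12. Mre11a and Rad50, which encode 2 subunits of the complex that brings ATM to breaks, both rose in that interval. Mre11a averaged 1561 ± 104 at gd14, against 737 ± 25.8 at gd12 (SD, n = 3 each, log2 change 1.05 ± 0.14, limma adjusted p = 3.72e-05), and fell to 864 ± 62.8 at gd16. Rad50 averaged 1816 ± 21 at gd14, against 1222 ± 147 at gd12 (log2 change 0.57, limma adjusted p = 0.0102), and reached 3319 ± 564 at pnd2, against 1683 ± 213 at gd18 (log2 change 0.96, limma adjusted p = 0.000209). The third subunit, Nbn, averaged 374 to 509 over stages and was not called (limma F test, adjusted p = 0.0624), nor was Kat5, an acetyltransferase that acts on ATM (259 to 358, adjusted p = 0.299). H2ax, the histone that ATM marks at breaks, averaged 1818 ± 403 at pnd2, against 4752 ± 395 at gd11 (log2 change -1.39, limma adjusted p = 1.69e-06), and the repair mediator Trp53bp1 averaged 7955 ± 378 at pnd2, against 13302 ± 1402 at gd11 (-0.74, limma adjusted p = 1.15e-05).

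In the ATR branch, 5 of 16 genes rose and 1 fell at gd14 against gd12 (median log2 change 0.36), beside 11.5% and 8% of all genes. At gd16 against gd14, 7 fell (median -0.44, beside 0.09 for all genes), as did 9.75% of all genes. Without gd14 sample 12 or gd12 sample 13, 3 rose at gd14, and the 7 that fell became 5 to 8 on leaving out single arrays. Hormad1, which brings ATR to unsynapsed chromosome axes, averaged 1954 ± 269.6 at gd14, against 54.2 ± 33.6 at gd12 (log2 change 4.61 ± 0.30, limma adjusted p = 6.04e-09), and 551 ± 208 at gd16. Its gd12 mean is below 115.78, so the size of that change rests on a low value. Tipin, a replication fork protein, averaged 3266 ± 154 at gd14, against 1819 ± 175 at gd12 (log2 change 0.84, limma adjusted p = 0.000483). Clspn (claspin), the adaptor between ATR and CHK1, averaged 552 ± 68.5 at gd16, against 1336 ± 267 at gd14 (log2 change -1.22 ± 0.16, limma adjusted p = 8.1e-05), the interval in which Chek1 fell. Rpa1, which coats single-stranded DNA, went the other way and averaged 5517 ± 100.7 at gd14, against 8133 ± 485 at gd12, and 11565 ± 808 at pnd2. Rad1 (219 to 334) and Rad9a (181 to 302), members of the clamp that activates ATR, were not called (limma F test, adjusted p = 0.0734 and 0.0822).

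Targets of CHK1 and CHK2 were mostly cell cycle genes, and 4 of 9 fell at gd14 against gd12 (median log2 change -0.49, beside -0.02 for all genes), where 8% of all genes fell. Without any one of gd14 samples 10, 11 and 12 or gd12 samples 13 and 15, 1 to 2 fell. Plk1, a mitotic kinase, averaged 778 ± 169 at gd14, against 1372 ± 211 at gd12 (log2 change -0.81, limma adjusted p = 0.00854). Cdk1 averaged 2304 ± 691 at gd14, against 3746 ± 444 at gd12, and 4184 ± 646 at pnd2, against 2426 ± 433 at gd18 (log2 change 0.78, limma adjusted p = 0.0136). Cdc25c, a phosphatase that CHK1 and CHK2 restrain, also fell at gd14 and averaged 333 ± 74.6 at pnd2, against 162 ± 73.8 at gd18 (0.97, limma adjusted p = 0.0175), but at pnd2 it was still below its gd11 mean of 891 ± 83.7 (-1.36, limma adjusted p = 0.000339). Cdc25a averaged 1418 ± 71.5 at pnd2, against 2301 ± 476 at gd11 (-0.67, limma adjusted p = 0.00357). Markers of dividing cells, given above, moved with this list only in part. At gd14, 3 of 5 were called lower and 1 higher, and their summed signal did not fall. Bub1, the 1 called higher, weighs on that sum, with means of 3180 at gd12, 7044 at gd14 and 2376 at gd16. That sum was lower at gd16 than at gd14, where 0 of the 9 targets were called lower. Only 2 of the 5 markers, Bub1 and Top2a, were called lower in that interval. The part of dividing cells in these changes was not tested. Cdc25b (310.1 to 450.04) and Pml (342 to 476) were not called (limma F test, adjusted p = 0.408 and 0.668).

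Of the p53 family regulators, 5 of 13 rose and 2 fell at pnd2 against gd18, the interval of the second rise of Trp63, where 8.49% of all genes rose and 6.83% fell. Without pnd2 sample 1, 2 rose and 1 fell, and without gd18 sample 6, 3 rose and 1 fell. The count of fallen genes was also 1 without gd18 sample 5, and neither fall was called without pnd2 sample 2. Csnk1e, a casein kinase 1 of the family that phosphorylates p63 after CHK2, averaged 2863 ± 217 at pnd2, against 1151 ± 57.7 at gd18 (log2 change 1.29 ± 0.14, limma adjusted p = 8.16e-06). Mdm4, which restrains p53, averaged 2112 ± 290.5 at pnd2 and 1418 ± 106 at gd18, against 811 ± 64.1 at gd16. Cables1, which in mice protects p63 from degradation, averaged 844 ± 79.8 at pnd2, against 467 ± 41.7 at gd18 (log2 change 0.81, limma adjusted p = 0.00913). Hipk2, a kinase of p53, averaged 1976 ± 378 at pnd2, against 5964 ± 1468 at gd11 (-1.57, limma adjusted p = 1.73e-06). Cop1 (4145 to 4708) and Ppp1r13l (346 to 424) were not called (limma F test, adjusted p = 0.359 and 0.672), and Trp73, the third family member, did not pass the filter.

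Target genes of the p53 family had no common course. At pnd2 against gd18, 3 of 19 rose, beside 8.49% of all genes, and 1 rose without pnd2 sample 1 or gd18 sample 5. Perp, a membrane protein that p63 controls in skin, averaged 707 ± 103 at pnd2 and 208 ± 97.5 at gd18, against 46.3 ± 13.1 at gd16 (pnd2 minus gd18, log2 change 1.69 ± 0.31, limma adjusted p = 0.00141). Its gd16 mean is below 115.78 and came after a called fall from 138 ± 55.7 at gd14 (log2 change -1.09, limma adjusted p = 0.0218). Levels of Perp at gd18 and gd14 did not differ beyond the spread (gd18 minus gd14, 0.48, limma adjusted p = 0.358). Rrm2b, a subunit of an enzyme that makes nucleotides for repair, averaged 1387 ± 34.9 at pnd2, against 952 ± 109.9 at gd18, and also rose at gd14 (1409 ± 127, against 629 ± 81.8 at gd12, limma adjusted p = 1.37e-05). Cdkn1a, which encodes the cell cycle inhibitor p21, averaged 264 ± 79.2 at pnd2, against 592 ± 133 at gd11 (-1.09, limma adjusted p = 0.00436), and Sesn1, a stress response gene, averaged 4233 ± 607 at pnd2, against 2129.6 ± 323 at gd11 (0.98, limma adjusted p = 1.07e-05). Pmaip1, one of the death genes named above, averaged 94.1 to 197 and was not called (limma F test, adjusted p = 0.419), nor was Btg2 (381 to 591, adjusted p = 0.392). Bbc3, the other death gene, did not pass the filter, and neither did Fas, Eda2r, Tnfrsf10b or Plk3.

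**Figure D5:**
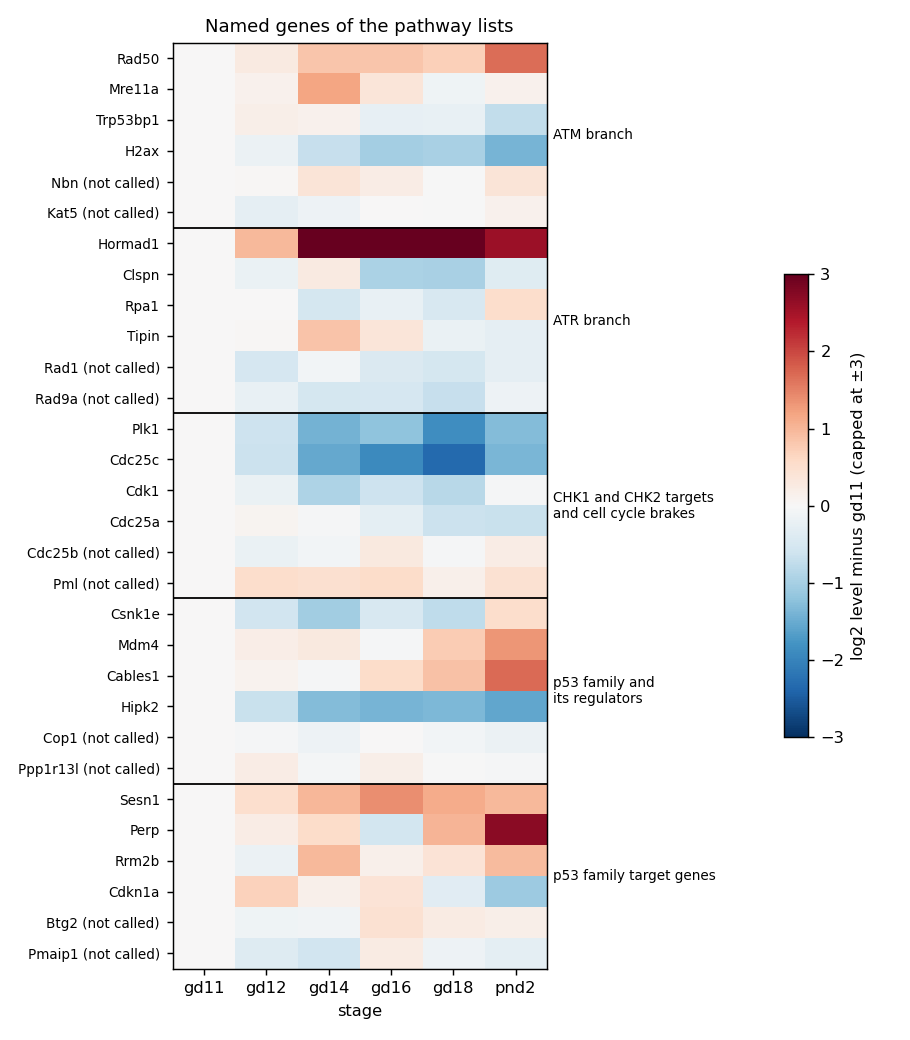
Log2 level relative to the gd11 mean (colour, capped at ±3) of the genes named from the 5 partner lists, by stage. Up to 4 genes per list with the smallest F-test p are shown, then up to 2 that were not called. Mre11a stands out at gd14, and Perp, Rad50, Cables1 and Mdm4 at pnd2. Hormad1 exceeds the cap at gd14, gd16 and gd18 alike and is still high at pnd2 (2.57).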

How the data were processed

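The deposited files hold linear signal intensities. GCOS produced them, per the submitters' processing notes, in a version not given in the sources used here. RNA went through 2 rounds of amplification, per the labels. Each array had been scaled so that its 2% trimmed mean was 500.0. Values were taken as log2(signal + 31), 31 being the 25th percentile of ovary values, which understates changes of dim genes. Testing required a stage mean over 115.78, the median of ovary values. This kept 26465 of 45101 probe sets, with 64 controls left out. A single gene was annotated to 34945 probe sets, several genes to 932, and 9160 had none.

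The 18 ovary arrays entered 1 limma fit (version 3.58.1, R 4.3.3, data.table in version 1.17.8), with a mean-variance trend and 12 residual degrees of freedom. All 15 pairs of stages and an F test were run, two-sided, with Benjamini-Hochberg adjustment per comparison. Signals are given as mean ± SD of 3 arrays and log2 changes ± SE. P-values measure only the spread between these samples, and precision is limited by how many arrays there are. No 2 arrays held identical values. The procedure was tested on simulated data. The array of whole animals was given without a test.

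The genes and lists were chosen with earlier results of these data known. From each partner list, the text names up to 4 called genes with the smallest F-test p and up to 2 tested genes with the largest. For each member it names the 4 genes with the highest correlation, leaving out clone names. Alternatives were other pseudocounts (8 and 116), normalizations and filters, no trend, array weights, only the arrays compared, and leaving out each array in turn. Other probe sets of a gene were used where they had passed the filter.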

Additional observations from a re-analysis of the deposited data

How the results depend on the processing

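The 3 Trp63 changes at late stages, both Atm changes around gd14, the rise of Atr to gd14 and both called Chek2 changes kept direction and call under all of their 29 to 31 alternatives. For Trp63 and Chek2 these hold no second probe set. The other 3 of Trp63 did not pass the filter, and Chek2 has only 1. Log2 changes ran from 2.54 to 3.51 (Trp63, gd18 minus gd16), 1.97 to 2.50 (Trp63, pnd2 minus gd18), 5.04 to 6.54 (Trp63, pnd2 minus gd11), 1.08 to 1.51 (Atm, gd14 minus gd12), 0.68 to 2.61 (Atr, gd14 minus gd12) and 0.96 to 1.21 (Chek2, pnd2 minus gd18). The fall of Atr at gd16 against gd14 was called in 18 of 31 alternatives. It was not called with quantile normalization (-0.53, limma adjusted p = 0.078), no filter (-0.61, 0.0621), no mean-variance trend (-0.61, 0.0657), array quality weights (-0.48, 0.125) or probe set 1445091_at (-0.44, 0.0558), and it ran from -0.78 to -0.49 on leaving out single arrays. The fall of Chek1 at gd16 was called in 23 of 31, but not without the trend (-0.44, limma adjusted p = 0.053), with array weights (-0.42, 0.0513) or with only the arrays compared (-0.44, 0.0615), and single arrays left out gave -0.54 to -0.38. Atr at pnd2 against gd11 was not called with 1438921_at (0.48) or 1445091_at (0.39). The F test of Chek1 was passed with median scaling (limma adjusted p = 0.0202), the mean of its probe sets (0.00447), 1439208_at (0.00469) and 1450677_at (0.0041), and ran from 0.0636 to 0.337 on leaving out single arrays.

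Some changes that were not called, or not by the representative probe set, changed sign. With median scaling, gd12 minus gd11 was -0.011 for Atm and -0.10 for Chek1, pnd2 minus gd11 was -0.10 for Chek1, and gd16 minus gd14 was -0.057 for Chek2. With other probe sets, pnd2 minus gd11 was 0.050 for Atm (1421205_at) and -0.29 and -0.16 for Chek1 (1439208_at and 1450677_at), gd18 minus gd16 was 0.50 and pnd2 minus gd18 was 0.30 for Atr (1438921_at), and 1439208_at of Chek1 gave -0.12 for gd14 minus gd12 and -0.073 for pnd2 minus gd18. The mean of all probe sets gave 0.040 for Atr (gd18 minus gd16) and -0.13 for Chek1 (pnd2 minus gd11), and array weights gave -0.056 for Trp63 (gd14 minus gd12). Leaving out single arrays gave ranges that crossed 0 for gd12 minus gd11 (Atm -0.072 to 0.36, Chek1 -0.069 to 0.10, Trp63 -0.11 to 0.28), for Trp63 gd14 minus gd12 (-0.092 to 0.11), and for Chek1 pnd2 minus gd11 (-0.015 to 0.14) and pnd2 minus gd18 (-0.012 to 0.21). The cause was not tested. At gd16 against gd14, 1 gene was called without the trend or with array weights, and 1 to 3 on leaving out single arrays. At gd18 against gd16, 2 were called with a pseudocount of 8, quantile normalization or a filter at the 75th percentile, and 1 to 2 on leaving out single arrays. Low signal limits Trp63 up to gd16 and the 5 dim probe sets.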
